A study of Cicer arietinum with 8 samples.

Results

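In chickpea roots, 32 genes were expressed at a constantly higher level in the salinity-sensitive (SS) genotype than in the salinity-tolerant (ST) genotype, both under salinity stress and in control. They were chosen from an expression table of 30692 loci, of which 27876 carry a gene name, by their FPKM (fragments per kilobase of transcript, scaled to the number of mapped fragments). A locus was taken when it had a gene name, FPKM above 0 in each of the 4 groups, FPKM of at least 5 in both SS groups, an SS value at least 2 times the ST value in both conditions, and a change under 1.5-fold either way between stress and control within each genotype. All 4 values of a gene entered this choice, so the levels and ratios of these genes are a description of what was chosen and carry no test.

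The groups were SS salinity stress, SS control, ST salinity stress and ST control, with 2 libraries in each and 8 in all. The SS genotype was ICCV2 and the ST genotype was JG62, each a single chickpea line, so a difference between them is a difference between these lines. Seedlings of the stress groups received 80 mM NaCl on alternate days for 6 days from an age of 12 days, and control plants were watered without salt. Roots were harvested at 18 days, although the design text of the series gives 17 days. The table holds 1 FPKM value per locus and group. Its column names carry no library number, so each value is taken here to combine both libraries. No spread between libraries, no n and no replicate check therefore stand behind any difference given here. The study itself compared the lines in control and reports genes differentially expressed between them. Most of those were not differentially expressed under salt in either line. Whether the genes chosen here are among them was not checked. FPKM values do not tell the depth of a library, which is unknown here. In whole roots, fewer cells of a type and less RNA per cell cannot be told apart when a gene is lower.

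Roots meet salt before the rest of the plant, and they answer by limiting sodium uptake, by pumping sodium into the vacuole or back to the soil, and by building up solutes that hold water. Genes of these responses can move when salt arrives. Inherited differences between lines of a crop, in a promoter, in the number of gene copies or in a regulator, can also set a gene at another level whether or not salt is present. Genes of the salt responses can be among those. The 32 genes were picked for a level that differed between the lines with and without salt, and what sets it was not tested. Their names have the form Ca_ followed by a number, and none of the 28269 gene identifiers of the table was found in the RefSeq gene table of chickpea at hand. They are therefore given by identifier without a role, and the root label was not checked against marker genes for the same reason.

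The question is how many genes hold a level in the SS genotype that is at least 2 times that in the ST genotype regardless of salt, and how this compares with the opposite direction. Of the 13565 named loci that were above 0 in every group and reached FPKM 5 in both SS groups, 138 (1.02%) were at least 2 times higher in SS than in ST under stress. In control the number was 196 (1.44%), and 61 (0.45%) met the ratio in both conditions. The limits on the change under salt left 32 of these, which is 0.236% of the loci open to the rule and 0.259% of the 12362 open loci within the salt limits. These percentages describe the rule itself and were not tested.

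With the genotypes exchanged in every step, 13741 loci were open and 77 (0.56%) were constantly higher in the ST genotype, or 0.614% of the 12544 within the salt limits. Under stress the loci at 2 times or more were fewer in the direction of SS, with 138 higher in SS against 457 (3.33%) higher in ST. In control the directions were nearly equal in number, with 196 higher in SS and 197 (1.43%) higher in ST. Both ratios were met by 61 loci higher in SS and by 128 (0.932%) higher in ST. Of the loci higher in SS under stress, 44.2% were also higher in SS in control, whereas 28% of the loci higher in ST under stress were also higher in ST in control. Taken from control, 31.1% of the loci higher in SS and 65.0% of those higher in ST kept the ratio under stress. Genes are not replicates and each group has 1 value, so the difference between the directions was not tested.

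**Figure D1:**
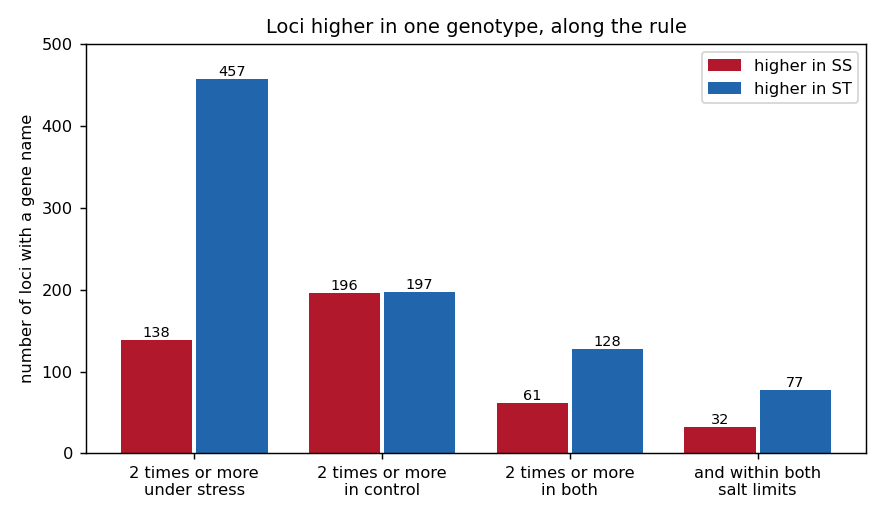
Number of loci with a gene name (vertical axis) at 2 times or more in one genotype, by condition and along the rule, with red bars for loci higher in SS and blue bars for loci higher in ST. The bars are far apart under stress (138 and 457) and nearly equal in control (196 and 197), and the last pair gives the 32 genes constantly higher in SS and the 77 constantly higher in ST.

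The 32 genes spanned a wide range of expression. FPKM ranged between 5.86 and 639 in SS salinity stress (median 30.9) and between 6.84 and 645 in SS control (median 31.6). The same genes ranged between 0.485 and 275 in ST salinity stress (median 11.2) and between 0.564 and 277 in ST control (median 10.2). The median ratio of SS to ST was 2.68 under stress and 2.70 in control. Over the 12362 open loci within the salt limits the median ratio was 0.978 under stress and 1.02 in control, so the typical locus was at nearly the same FPKM in both lines. Ranked among the 18828 named loci above 0 in every group, the 32 genes stood at a median percentile of 68.8 in SS salinity stress and 69.0 in SS control, against 41.3 in ST salinity stress and 39.7 in ST control. In 28 of the 32 genes, the lower SS value was at least 2 times the higher ST value, whatever the condition.

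**Figure D2:**
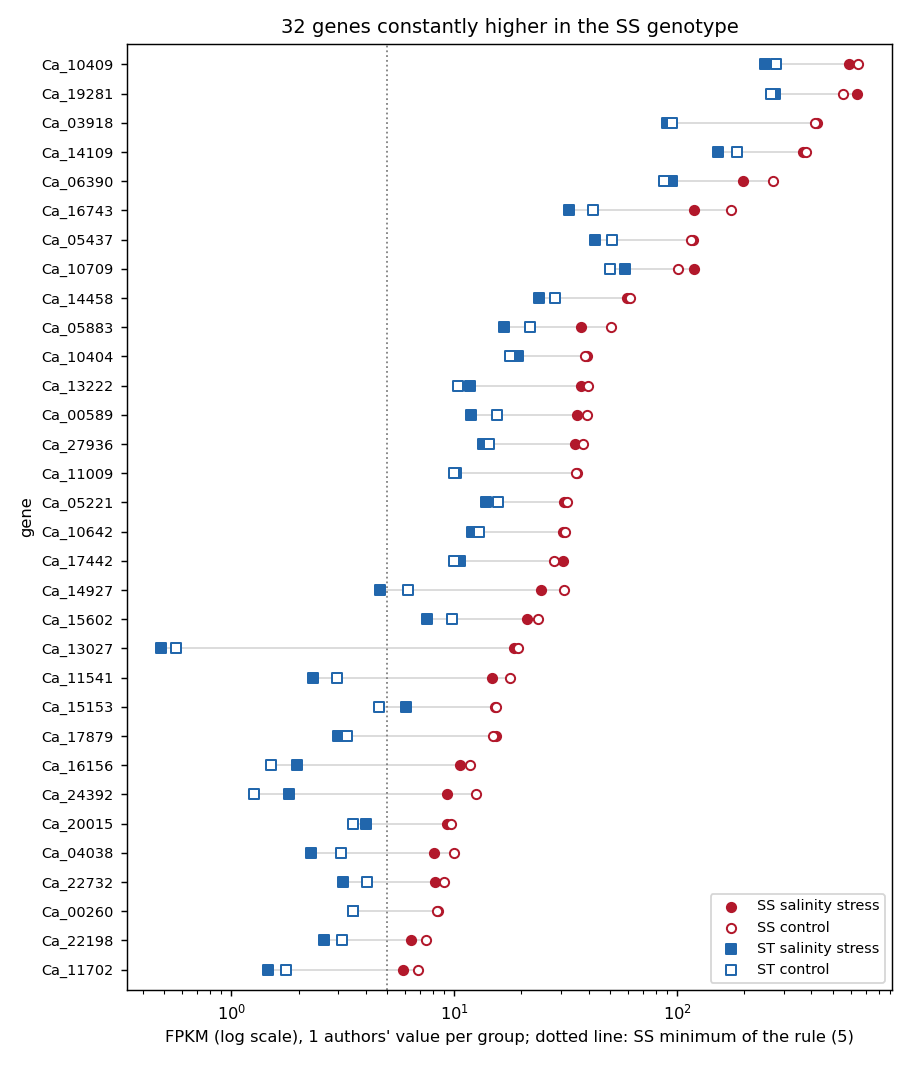
FPKM of the 32 genes on a log scale (horizontal axis), 1 row per gene, with red circles for SS and blue squares for ST, filled for salinity stress and open for control, and a dotted line at FPKM 5. Both SS values lie to the right of both ST values in every row, and the gap is widest in Ca_13027.

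None of the 32 loci carried more than 1 gene name, against 516 (3.80%) of the 13565 open loci, and none of the names occurred at a second locus. Whether reads of other genes enter their values was not tested. The genes held 0.233% of the summed FPKM in SS salinity stress and 0.249% in SS control, against 0.0853% in ST salinity stress and 0.0970% in ST control. The sum was carried by few of them, since the 4 highest made up between 61.5% and 65.3% of it in each group.

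By their level in SS, the genes fell into 8 with FPKM of at least 100 in both SS groups, 12 between 20 and 100, and 12 under 20. The median of the smaller of each gene's 2 ratios was 2.18 in the high group, 2.48 in the middle group and 3.57 in the low group. At least 3-fold in both conditions were 2 of the 8 high genes, 3 of the 12 middle genes and 7 of the 12 low genes. The largest ratios were thus mostly among genes of low FPKM in ST, where a small absolute error moves a ratio more, and the size of that error is unknown here.

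Ca_10409 had the highest mean FPKM over both SS groups, with FPKM 592 in SS salinity stress and 645 in SS control, against 247 in ST salinity stress and 277 in ST control. Ca_19281 had 639 and 555 in the SS groups under stress and in control, against 275 and 264 in the ST groups, and was above Ca_10409 in both lines under stress. Ca_14109 had 366 in SS salinity stress and 377 in SS control, against 153 and 186 in ST salinity stress and ST control. These 3 genes were near the top of the root transcriptome in both lines, between percentiles 92.4 and 98.6 in the 4 groups, and their ratios lay between 2.03 and 2.40.

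Ca_03918 combined a high level with a wide gap. It had FPKM 425 in SS salinity stress and 414 in SS control, against 89.7 in ST salinity stress and 95.2 in ST control, a ratio of 4.73 under stress and 4.35 in control. This gene stood at percentile 97.5 of the named loci in SS salinity stress and 97.4 in SS control, and at 87.4 and 89.0 in ST salinity stress and ST control. It was among the 5 genes whose FPKM moved least with salt, by 1.03-fold in SS and 0.942-fold in ST.

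The other highly expressed genes moved more with salt. Ca_16743 had FPKM 119 in SS salinity stress and 174 in SS control, against 32.7 in ST salinity stress and 41.9 in ST control, and it had the largest change within SS of the 32 genes (0.683-fold). Ca_06390 had 198 in SS salinity stress and 268 in SS control, against 94.4 and 87.4 in ST salinity stress and ST control, so that its ratio was 2.09 under stress and 3.06 in control. The gap in Ca_06390 was narrower under stress through a lower value in SS and a slightly higher one in ST. Ca_05437, at 118 in SS salinity stress and 115 in SS control against 43.0 in ST salinity stress and 50.7 in ST control, had the wider gap under stress (2.75 against 2.27). Ca_10709, with 119 and 101 in SS salinity stress and SS control against 58.4 and 50.1 in ST salinity stress and ST control, was higher under stress by nearly the same factor in both lines, 1.18-fold in SS and 1.16-fold in ST.

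In the middle group, the widest gap was in Ca_14927. Its FPKM was 24.4 in SS salinity stress and 31.1 in SS control, against 4.63 in ST salinity stress and 6.21 in ST control, and the ratio was 5.27 under stress and 5.0 in control. Both lines were lower under stress, by 0.786-fold in SS and 0.746-fold in ST, which kept the ratio nearly in place. Ca_11009 had 35.4 in SS salinity stress and 35.1 in SS control, against 10.2 and 9.99 in ST salinity stress and ST control. Salt thus left Ca_11009 at 1.01-fold and 1.02-fold of control in SS and ST, while the lines differed 3.48-fold under stress and 3.52-fold in control. Ca_14458 (59.3 and 61.3 in SS under stress and in control, against 23.9 and 28.4 in ST) and Ca_00589 (35.6 and 39.3, against 11.9 and 15.5) had a wider gap under stress, whereas Ca_05883 (36.9 and 50.5, against 16.7 and 21.9) had a slightly narrower one. Ca_10642 had 30.8 in SS salinity stress and 31.2 in SS control, against 12.0 and 12.9 in ST salinity stress and ST control, with changes under salt of less than 1.1-fold.

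Ca_13027 stood apart from the other 31 genes. Its FPKM was 18.5 in SS salinity stress and 19.3 in SS control, against 0.485 in ST salinity stress and 0.564 in ST control, a ratio of 38.1 under stress and 34.3 in control. It was the only one of the 32 genes under FPKM 1 in both ST groups, and it stood at percentiles 55.4 and 55.9 in SS salinity stress and SS control, against 5.52 and 6.30 in ST salinity stress and ST control. With 1 added to every FPKM the ratio was 13.1 under stress and 13.0 in control, so the gap remained the widest of the 32 but its size depends on values close to 0.

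Next to it in the size of the gap, again at low level, was Ca_11541, with FPKM 14.8 in SS salinity stress and 17.7 in SS control, against 2.33 in ST salinity stress and 2.98 in ST control. Ca_17879 had 15.3 in SS salinity stress and 14.9 in SS control, against 2.99 and 3.29 in ST salinity stress and ST control. Both kept their ratio close between the conditions, at 6.34 under stress and 5.96 in control for Ca_11541 and at 5.11 and 4.51 for Ca_17879. Ca_16156 and Ca_24392 did so less. Ca_16156 had 10.6 in SS salinity stress and 11.8 in SS control, against 1.98 in ST salinity stress and 1.5 in ST control. Ca_24392 had 9.27 in SS salinity stress and 12.5 in SS control, against 1.82 in ST salinity stress and 1.26 in ST control, and its ratio was 5.10 under stress and 9.87 in control. In both of these genes the SS value was lower and the ST value higher under stress than in control. Ca_11702 had the lowest values of the 32 genes in SS, with 5.86 in SS salinity stress and 6.84 in SS control, against 1.46 and 1.75 in ST salinity stress and ST control. The 9 genes not given singly, such as Ca_13222 and Ca_04038, had SS values between 6.39 and 39.7, ST values between 2.27 and 14.2, and ratios between 2.21 and 3.81.

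How steady the genes were under salt was partly fixed by the rule, which admits no change of 1.5-fold or more. Within that limit, 8 genes (25%) stayed within 1.1-fold of control in both lines, against 3932 (31.8%) of the open loci within the same limits, and 17 genes (53.1%) stayed within 1.2-fold, against 8335 (67.4%). The steadiest was Ca_00260, with FPKM 8.41 in SS salinity stress and 8.39 in SS control, against 3.51 in ST salinity stress and 3.52 in ST control. Ca_10404 was also among the 5 steadiest. The change was toward lower FPKM under stress in more genes than toward higher. In SS, 23 of the 32 genes (71.9%) had a lower value under stress, against 54.5% of the open loci within the limits, and in ST 21 genes (65.6%), against 40.1%. Both lines were lower in 17 genes (53.1%), against 24.7%, and both were higher in 5. On the log2 scale the median change under stress was -0.08 in SS and -0.15 in ST for the 32 genes, against -0.02 in SS and 0.05 in ST for the open loci within the limits. Of the 77 loci constantly higher in ST, 54 (70.1%) were lower under stress in SS and 30 (39.0%) in ST. These small shifts lie within the limits that chose the genes and have no replicate error, so nothing is read from them.

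**Figure D3:**
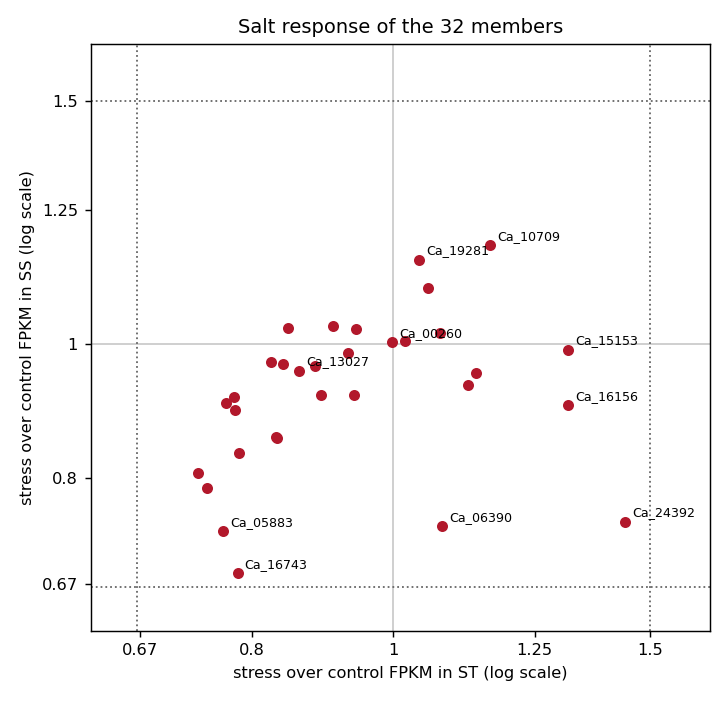
FPKM under stress divided by FPKM in control, in SS (vertical axis) and in ST (horizontal axis), both on log scales, with 1 point per gene and dotted lines at the 1.5-fold limits of the rule. Most of the 32 genes lie in the lower left part, where both lines were lower under stress (17 genes), and Ca_24392 is the farthest to the right, at 0.744-fold in SS and 1.44-fold in ST.

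The gap between the lines was of similar size in both conditions. In 16 of the 32 genes (50%) the ratio under stress and the ratio in control lay within 1.1-fold of each other, against 44.5% of the 12362 open loci within the salt limits, and in 26 (81.2%) they lay within 1.2-fold, against 71.8%. The ratio was larger under stress in 21 genes (65.6%), against 38.6% of those loci. Of the 77 loci constantly higher in ST, the ratio of ST to SS was larger under stress in 54 (70.1%). A wider gap under stress was thus not particular to the genes higher in SS, and the directions were not tested against each other. The widest relative gain under stress was 1.21-fold, in Ca_05437, and the largest loss was to 0.516-fold, in Ca_24392. After Ca_24392, Ca_06390 and Ca_16156 lost most. The salt limits bound this quotient, so its size follows in part from the choice of the genes.

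**Figure D4:**
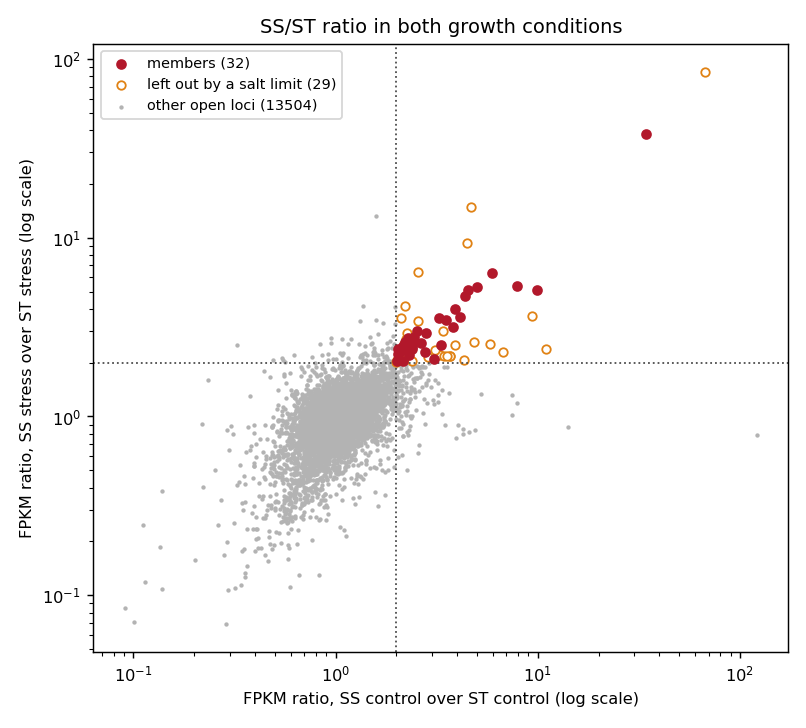
FPKM ratio of SS to ST under stress (vertical axis) against the same ratio in control (horizontal axis), both on log scales, for the 13565 open loci, with dotted lines at 2. Red points are the 32 genes, open orange points are the 29 loci that met both ratios but changed 1.5-fold or more under salt, and grey points are the others. Ca_13027 is the red point farthest from the rest, at 38.1 under stress and 34.3 in control.

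At the edge of the rule, Ca_10709 (2.03 under stress and 2.01 in control), Ca_14109 (2.39 and 2.03) and Ca_05221 (2.22 and 2.04) were the genes just inside the ratio of 2. Just outside were Ca_17200 (1.99 and 2.89), Ca_07466 (1.98 and 2.14) and Ca_18876 (3.29 and 1.98), which met every other step. The error of these ratios is unknown, so the line between the genes inside and outside is not a measured one. Ca_10709 left the list when the columns were rescaled by their median ratio or their upper quartile, and Ca_14109 under the upper quartile. The ratio was missed in 1 condition only, with all other steps met, by 45 loci under stress and by 34 in control.

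Of the 61 loci that met both ratios, 52.5% were within both salt limits, against 91.1% of the 13565 open loci, and this difference was not tested. The share was also low in the opposite direction, at 60.2% of 128 loci against 91.3% of the 13741 open ones. Of the 61 loci higher in SS, 29 left by the limit on salt. The limit in SS alone left out 7 of them, that in ST alone 13, and both 9. The widest gap among these was in Ca_12697, which had FPKM 8.77 in SS salinity stress and 12.2 in SS control, against 0.103 in ST salinity stress and 0.183 in ST control. It left because its very low ST values differed by more than 1.5-fold. Ca_12696, the adjacent gene number and also picked after its values were seen, had 37.8 and 27.0 in SS salinity stress and SS control, against 15.9 and 8.66 in ST salinity stress and ST control, and left by the ST limit as well.

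Position in the genome is not part of the table, but the loci are numbered, and in 93.5% of the 25736 pairs of neighbouring rows with 1 gene name each the gene numbers were at most 10 apart. No pair of the 32 genes had consecutive gene or locus numbers. The closest pair was Ca_10404 and Ca_10409, with 3 loci between them in the numbering, and the stretch around them was looked at after these values were seen. All 3 loci between them were also higher in SS. Ca_10405 had FPKM 3.47 in SS salinity stress and 3.57 in SS control, against 1.80 and 1.17 in ST salinity stress and ST control, and missed the FPKM minimum, the ratio under stress (1.92) and the salt limit in ST (1.55-fold). Ca_10407 had 95.0 in SS salinity stress and 91.9 in SS control, against 43.6 in ST salinity stress and 26.6 in ST control, and left the list by its change under salt in ST. Ca_10408 had 8.0 and 9.14 in SS salinity stress and SS control, against 4.31 and 5.18 in ST salinity stress and ST control, with ratios of 1.86 and 1.76. The first locus of the stretch, Ca_10404, had 39.2 in SS salinity stress and 38.5 in SS control, against 19.2 and 17.9 in ST salinity stress and ST control. The last of the 5 was Ca_10409.

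On both sides of the stretch the difference ended. Ca_10402, the locus before it, had a ratio of 1.0 under stress and 0.914 in control at FPKM between 193 and 211, and Ca_10401 had 0.993 and 1.07. After it, Ca_10410 had 1.40 under stress and 0.600 in control, and Ca_10412 had 1.1 and 1.01. Among the 6059 stretches of 5 consecutive loci that all reached FPKM 1 in the 4 groups, this was the only run of 5 or more in which each locus was at least 1.5 times higher in SS in both conditions. The run length and the ratio were set after the stretch was seen and 2 of its 5 loci were chosen by the same values, so this count only describes the stretch. Over all 32 genes, 50 of the 64 loci numbered next to them reached FPKM 1 in all groups, and 4 of these (8.0%) were at least 1.5 times higher in SS in both conditions, against 2.23% of all 18918 loci at that level. None of the 50 was at 2 times or more in both conditions, and 17 (34%) were above ST by any amount in both, close to the 29.8% of all those loci. Of the 4, 2 belong to the stretch around Ca_10404. Whether neighbouring loci share reads was not tested.

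**Figure D5:**
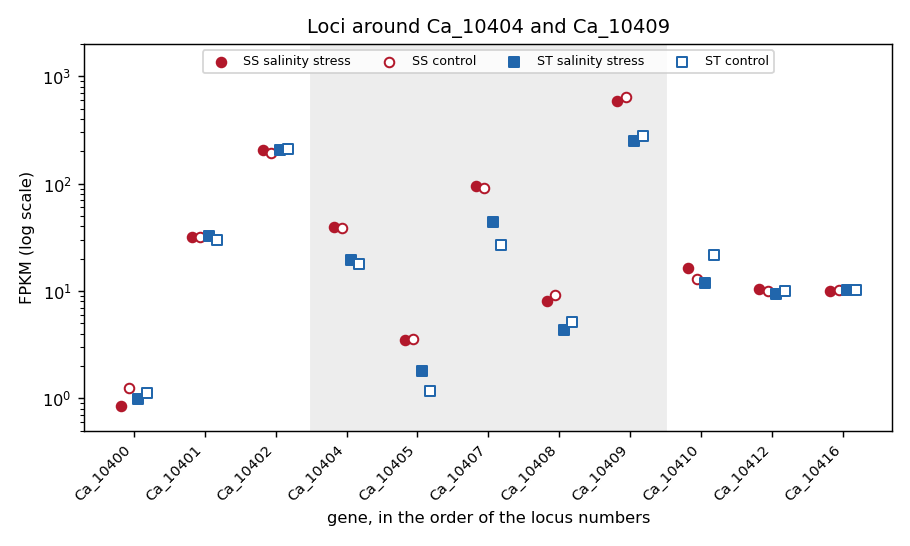
FPKM on a log scale (vertical axis) of 11 consecutively numbered loci around Ca_10404 and Ca_10409, in the order of their locus numbers, with red circles for SS and blue squares for ST, filled for salinity stress and open for control. In the 5 shaded loci both SS values lie above both ST values, by ratios between 1.76 and 3.46, while in Ca_10401, Ca_10402, Ca_10412 and Ca_10416 the 4 values nearly coincide.

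The text of the study names 17 genes by identifier, and for most of them it gives a homolog with a known role. None of the 17 was among the 32 genes. The study presents them as differentially expressed under salt, at a cut-off of 1.5-fold, so the salt limits nearly fixed this absence in advance. Only 2 of the 18 loci that hold them were within both salt limits, against 91.1% of the 13565 open loci. In both conditions 8 of the 18 were higher in SS, against 29.8% of the 18918 loci at FPKM 1 or more in every group. The only one at 2 times or more in both conditions was Ca_25099, a homolog of FRD3, a MATE efflux protein that in Arabidopsis loads citrate into the xylem and so moves iron. It had FPKM 8.89 in SS salinity stress and 26.5 in SS control, against 1.39 in ST salinity stress and 10.4 in ST control, and it left by both salt limits, being lower under stress in both lines. Ca_20130, which occurs at 2 loci, came near the profile at XLOC_011723, with 332 in SS salinity stress and 282 in SS control, against 226 and 178 in ST salinity stress and ST control, but its ratios were 1.47 and 1.59. Ca_10731, a homolog of a lipoxygenase gene, whose enzyme oxidises fatty acids on the way to jasmonate and related compounds, had 12.8 in SS salinity stress and 30.1 in SS control, against 6.73 and 11.6 in ST salinity stress and ST control. Its ratio was 1.90 under stress and 2.59 in control, and its FPKM under stress was 0.425-fold of control in SS and 0.579-fold in ST.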

How the data were processed

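The authors removed adapters and reads under a Phred score of 20 from the 49 bp single-end reads, mapped the rest with TopHat2 2.1.1 on the Kabuli chickpea genome (version 1.0), assembled them with Cufflinks 2.2.1 and estimated expression with Cuffdiff, version 2.2.1 in the submitters' processing notes. The scaling between libraries is not given in the sources used here. The deposited values are FPKM, 1 for each locus in each group, taken here as values over both libraries. Reads of both lines were mapped on the same reference, and whether sequence differences between the lines alter the mapping at a locus was not tested.

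Plain FPKM ratios were taken without a pseudocount, and the rule was applied in Python 3.11.15 with pandas 2.3.3 and numpy 2.4.6. No test could be made, since each group has 1 value. The rule was tested on simulated data with genes planted in both directions.

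The 32 genes and the lists were chosen with earlier results of these data known. Genes named singly are the 10 with the largest smaller ratio, the 10 highest in SS, the 5 steadiest under salt, the 3 just inside and the 3 just outside the ratio of 2, the 3 with the largest and the 3 with the smallest quotient of the 2 ratios, runs of consecutive gene numbers (none was found), and the genes the study names that are members (none). Others were picked after their values were seen. Alternatives were other ratios, FPKM minimums and salt limits, pseudocounts of 0.1 and 1, median-ratio and upper-quartile scaling, and loci at 0, without a name or with several names let in or left out.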

Additional observations from a re-analysis of the deposited data

How the results depend on the processing

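The number of genes constantly higher in SS followed the limits of the rule. It was 178 at a ratio of 1.5, 12 at 3 and 7 at 4, it was 49 with an FPKM minimum of 1 and 62 with none, it was 20 with a salt limit of 25% above control or the inverse, 51 with one of 2-fold and 61 with none, and it was 51 with unnamed loci let in. In the opposite direction, 247, 19 and 11 loci were higher in ST at ratios of 1.5, 3 and 4, and 31 and 128 with a salt limit of 25% and with none. Loci higher in SS were 29.4% of both directions together, 41.9% at a ratio of 1.5 and 39.2% with a salt limit of 25%. Scaling and pseudocounts moved the count little, to between 30 and 35. Of the 32 genes, 31 remained under median-ratio scaling, 30 under upper-quartile scaling and 28 with a pseudocount of 1. Ca_03918, Ca_13027 and Ca_17879 remained under every alternative run for the list, in which the highest FPKM minimum was 10. Ca_13027 and Ca_17879 are under FPKM 20 in both SS groups, so a minimum of 20 would leave them out. The median ratio of SS to ST under stress was 2.67 with median-ratio scaling, 2.66 with upper-quartile scaling, and 2.75 and 2.74 with pseudocounts of 0.1 and 1. In control it was 2.72, 2.71 (upper quartile), 2.71 (pseudocount of 0.1) and 2.77. On the log2 scale the median change under stress was -0.10 and -0.11 in SS, and -0.17 and -0.16 in ST, under median-ratio and upper-quartile scaling. As alternatives chosen after the data were seen, the loci at 2 times or more under stress were 156 higher in SS against 429 higher in ST with median-ratio scaling, 151 against 439 with upper-quartile scaling, and 61 against 289 with an FPKM minimum of 20, and those in control were 93 against 90 with that minimum. No paired analysis was possible because each group has 1 column without a replicate number, and for the same reason no replicate could be left out.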

Other observations

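Loci without a gene name followed the same profile in 19 cases higher in SS, against 12 higher in ST, while the named loci numbered 32 and 77. The table has 2816 loci without a gene name and 27876 with one. How many unnamed loci were open to the rule was not counted, so these counts have no share beside them and nothing is read from their direction. The SS values of the 19 loci ranged between 6.15 and 1186, and the median of the smaller ratio was 2.37. The most abundant, XLOC_026480, had FPKM 1186 in SS salinity stress and 1130 in SS control, against 148 in ST salinity stress and 180 in ST control, above each of the 32 named genes in SS. The widest gap was in XLOC_029331, with 14.4 in SS salinity stress and 10.4 in SS control, against 0.0890 in ST salinity stress and 0.112 in ST control. Both loci were picked after their values were seen.

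Loci listed at 0 in ST were outside the rule, which asks for values above 0. Among named loci only Ca_00243 met the rest of it, with FPKM 8.59 in SS salinity stress and 8.13 in SS control and a listed 0 in both ST groups. Among unnamed loci, XLOC_008784 had 133 in SS salinity stress and 127 in SS control, and XLOC_020063 had 24.8 and 20.1, again with a listed 0 in both ST groups. An exact 0 in such a table can be a failed estimate, so no fold is given.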
